A study of Mus musculus with 12 samples.

Results

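The effect of the CBL mutation alone was examined in haematopoietic stem and progenitor cells (HSPC) of mouse bone marrow, by setting the 2 CBL mutant libraries of the series against its 2 wild type HSPC libraries. These 4 of 12 RNA sequencing libraries were taken by their labels. The series has 6 groups of 2 libraries, and the other 8 libraries are RUNX1 mutant and CBL/RUNX1 double mutant HSPC and Ly6G+ marrow cells of wild type and double mutant mice. All mice were of strain C57BL/6, and marrow was taken from individual mice. HSPC were purified by positive selection for CD117, the stem cell factor receptor encoded by Kit, and the mutant clone was then sorted by flow cytometry. The CBL allele, the way it was introduced, the promoter that drives it, the age of the mice and any treatment are not given in the sources used here. The labels do not say which mouse gave which library either, so the p-values below measure the spread between these libraries. The deposited values are TPM, a length-corrected measure in which each gene is expressed relative to the sum of all transcripts of its library. Of 28987 genes in the table, 11510 had 1 TPM or more in at least 2 of the 4 libraries and were tested.

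CBL is an E3 ubiquitin ligase. It binds activated tyrosine kinase receptors such as KIT and FLT3 and cytokine receptor complexes, marks them for internalization and degradation, and so ends their signal. Mutations of its linker and RING domains occur in myeloid neoplasms, and they leave RAS-MAPK, PI3K and STAT signalling active for longer. HSPC are the cells from which the erythroid, megakaryocytic, granulocytic, monocytic and lymphoid lineages arise, and a CD117 selected fraction is a mixture of such progenitors. RNA of a mature cell type in it can come from few cells, and in bulk samples fewer cells of a type and less RNA per cell cannot be told apart.

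The markers were those of a mixed myeloid fraction rather than of pure stem cells. Kit lay at 27.3 and 29.6 TPM in the wild type libraries and 33.9 and 36.3 in the CBL mutant libraries after rescaling. The deposited Kit values were 25.6 and 24.5 TPM in wild type HSPC and 8.93 and 13.3 TPM in wild type Ly6G+ cells. S100a8 and S100a9, which encode the calprotectin subunits of neutrophils, made up 28.9% and 31.4% of the TPM in wild type and 26.9% and 21.5% in CBL mutant HSPC. Ly6g lay at 513 and 611 TPM against 529 and 387 TPM. Deposited S100a8 was at 189740 and 209220 TPM in wild type HSPC and lower, at 174060 and 164060 TPM, in wild type Ly6G+ cells. Deposited S100a9 (91205 and 96496 TPM) and Ly6g (482 and 504 TPM) in wild type HSPC were below those of wild type Ly6G+ cells. There S100a9 was at 163870 and 165230 TPM and Ly6g at 2017 and 2026 TPM. The defining stromal and endothelial markers Col1a1 and Cdh5 were at 1.30 TPM or less in all 4 libraries. The TPM of a library summed to between 970541 and 974675, and 10717 to 11744 genes reached 1 TPM. Factors of 0.824 to 1.17 brought the libraries to a common scale, the smaller ones in wild type. Immunoglobulin RNA took 6.41% and 6.63% of the TPM in wild type against 0.0735% and 0.0995% in CBL mutant HSPC. Ribosomal protein genes took 9.01% and 9.23% against 12.5% and 13.6%. The part of any class in the factors was not tested. Levels below are rescaled TPM of wild type replicates 1 and 2 against CBL mutant replicates 1 and 2, in that order, unless they are called deposited.

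Across the 11510 genes, 306 were higher and 356 lower in CBL mutant HSPC at an adjusted p under 0.05. These are 2.66% and 3.09% of the genes tested, and 5.75% in either direction. Called changes were of moderate size, with a median log2 fold change of 0.98 among the higher and -0.90 among the lower genes. By at least 1 on the log2 scale, 149 genes were higher and 144 lower, and by at least 2, 41 and 45. The standard deviation over genes of the log2 difference was 0.28 between the wild type libraries, 0.35 between the CBL mutant libraries and 0.56 between the group means. The groups did not overlap in any of the 662 called genes, but they did not overlap in 59% of all genes tested either. Of the called genes, 82 higher and 35 lower ones had entered the test through 1 group only, because every library of the other group was under 1 TPM. The plot of fold change against level shows the called genes at all levels of expression, with immunoglobulin genes as the largest group of strong decreases.

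**Figure D1:**
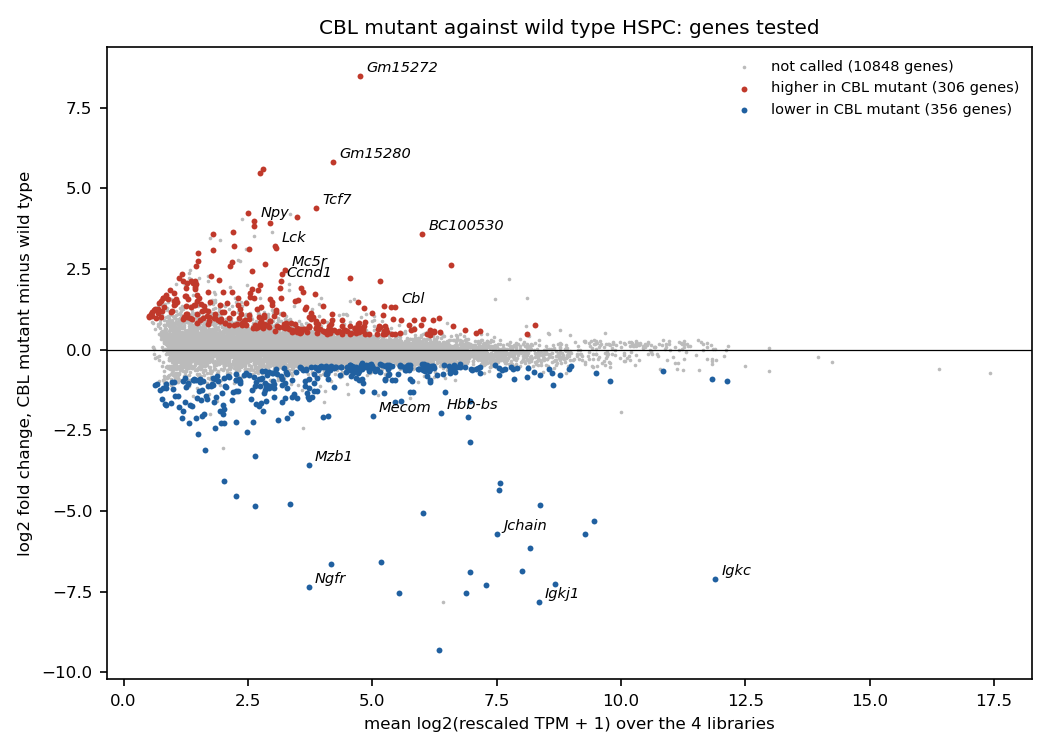
Log2 fold change of CBL mutant minus wild type HSPC (vertical axis) against the mean log2(rescaled TPM + 1) over the 4 libraries (horizontal axis), 1 point per gene tested, with the 306 genes called higher in red, the 356 called lower in blue and the others in grey. Igkc, Igkj1, Ngfr and Jchain lie among the lowest points, and Gm15272, Gm15280 and Tcf7 among the highest.

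These counts depended on which libraries entered the fit. Without wild type replicate 1 or without wild type replicate 2, 21 and 19 genes were called. Without CBL mutant replicate 1 or 2 the counts were 1374 and 2258. In a fit of all 8 HSPC libraries, whose spread is shared with the RUNX1 mutant and double mutant groups, 68 genes (0.591%) were called, and all 68 were among the 662. Without rescaling, 3709 genes were called and 93.45% of them were higher, against 46.22% with rescaling. The median gene differed by 0.34 on the log2 scale without rescaling and by 0.01 with it. All 662 called genes had the same sign in each alternative in which they were tested. The medians given below are after rescaling, and without it list medians that lie less than 0.34 below 0 mostly turn positive. Without wild type replicate 1, and likewise without replicate 2, calls were made in the lists of immunoglobulin, plasma cell, B cell, T cell receptor and T cell genes and for Ngfr, and in no other list.

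Cbl itself was higher in the mutant libraries, and Runx1 was not called. Cbl lay at 33.1 and 21.7 TPM in wild type and 66.5 and 69.7 TPM in CBL mutant HSPC (log2 fold change 1.31 ± 0.20 SE, adjusted p = 0.0317). As in every called gene, the groups did not overlap. The wild type libraries differed from each other more than the mutant libraries did. The call was lost in the fit of 8 HSPC libraries (adjusted p = 0.169) and with any 1 of the 4 libraries left out (adjusted p between 0.0846 and 0.212). The deposited Cbl values were 24.9 and 32.1 TPM in RUNX1 mutant and 103 and 115 TPM in double mutant HSPC, so the libraries that carry a CBL mutation by their labels were the 4 highest of the 8. Runx1, the transcription factor mutated in other groups of the series, lay at 13.6 and 13.7 TPM against 11.02 and 14.03 TPM, with overlapping groups (log2 fold change -0.12 ± 0.14 SE, adjusted p = 0.61). Its fold change turned to 0.22 without rescaling and to 0.041 without CBL mutant replicate 1. A value per gene does not separate mutant from wild type transcripts.

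Of 31 tested CBL family members, adaptors and negative regulators of receptor signalling, 3 rose (9.68%, against 2.66% of all genes) and none fell, and the list's median log2 fold change was 0.07, against 0.01 over all genes. Of the 3, 2 had entered through 1 group only. Beside Cbl these were Sla2, an adaptor that recruits CBL to lymphocyte receptors, and Grap, a GRB2-like adaptor. Sla2 lay at 0.352 and 0.354 TPM against 4.38 and 2.34 TPM (log2 fold change 1.65 ± 0.26 SE, adjusted p = 0.0331), and Grap at 0.749 and 0.859 TPM against 2.58 and 2.47 TPM (log2 fold change 0.97 ± 0.17 SE, adjusted p = 0.0387). Both were under 1 TPM in wild type. The paralog Cblb lay at 2.25 and 2.04 TPM against 3.64 and 2.76 TPM and was not called (log2 fold change 0.41 ± 0.18 SE, adjusted p = 0.209).

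Among 25 tested growth factor and cytokine receptors, 1 rose (4%, against 2.66% of all genes) and 2 fell (8%, against 3.09%), with a median of 0.08. The 1 that rose, Il7r, had entered the test through the CBL mutant group only. Epor, the erythropoietin receptor, fell from 10.8 and 9.601 TPM to 4.46 and 2.99 TPM (log2 fold change -1.26 ± 0.18 SE, adjusted p = 0.0262). Il4ra, the receptor chain for IL-4 and IL-13, fell from 13.7 and 13.4 TPM to 8.36 and 9.09 TPM (log2 fold change -0.58 ± 0.11 SE, adjusted p = 0.0413). Il7r, the IL-7 receptor chain of lymphoid progenitors, rose from 0.434 and 0.399 TPM to 4.73 and 2.12 TPM (log2 fold change 1.58 ± 0.31 SE, adjusted p = 0.0473). The groups did not overlap for any of the 3 genes, as for every called gene and 59% of all genes tested. None of the 3 was called in the fit of 8 HSPC libraries. Kit, whose protein is both a CBL substrate and the antigen used for selection, had a log2 fold change of 0.29 ± 0.10 (SE) and was not called (adjusted p = 0.124). Flt3 lay at 2.85 and 3.04 TPM in wild type and at 39.2 and 11.2 TPM in CBL mutant replicates 1 and 2 (log2 fold change 2.49 ± 0.58 SE, adjusted p = 0.0824). Its CBL mutant libraries were both higher but differed from each other by more than 3-fold, and the gene was not called.

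Genes read as outputs of receptor signalling moved in part. In the RAS-MAPK list 3 of 17 tested genes rose (17.6%, against 2.66% of all genes) and none fell, with a median log2 fold change of 0.12. Ccnd1, encoding cyclin D1, which drives passage through G1, rose from 3.18 and 3.37 TPM to 23.8 and 12.999 TPM (log2 fold change 2.12 ± 0.27 SE, adjusted p = 0.0217). Myc, a transcription factor of growth, rose from 44.9 and 46.01 TPM to 91.3 and 88.01 TPM (log2 fold change 0.96 ± 0.09 SE, adjusted p = 0.00765). Dusp5, a phosphatase that acts on nuclear ERK, rose from 1.42 and 1.43 TPM to 5.29 and 3.41 TPM (log2 fold change 1.12 ± 0.21 SE, adjusted p = 0.0438). The remaining members, among them the feedback regulators Dusp6 (log2 fold change 0.84), Spry2 (-0.11), Spred1 (0.61) and the ETS factor Etv5 (1.14), were not called. Of these calls only that of Ccnd1 was also made in the fit of 8 HSPC libraries (adjusted p = 0.0461), and no member was called without wild type replicate 1 or 2.

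Of 17 STAT5 and STAT3 target genes, 1 rose and 1 fell (5.88% each, against 2.66% and 3.09% of all genes), and the median was -0.27 (0.09 without rescaling). Ccnd2, encoding cyclin D2, rose from 8.68 and 8.8998 TPM to 19.6 and 16.4 TPM (log2 fold change 0.95 ± 0.12 SE, adjusted p = 0.019). Pim1, a survival kinase, fell from 92.4 and 87.7 TPM to 49.7 and 52.3 TPM (log2 fold change -0.81 ± 0.09 SE, adjusted p = 0.0134). The groups did not overlap for either gene, as for every called gene and 59% of all genes tested. In the list of PI3K, AKT, mTOR and SRC family kinases 1 of 27 genes rose, Lck, described with the T lineage genes, and 1 fell. These are 3.7% each, near the 2.66% and 3.09% of all genes.

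Genes of the T lineage were higher in CBL mutant HSPC. Of 39 T cell genes in the table, 22 were tested, of which 10 had entered through 1 group only. Of the 22, 11 were called higher (50%, against 2.66% of all genes) and none lower. Of the 11, 6 had entered only because they were high in CBL mutant HSPC, and the filter thus bears on the count and on the median log2 fold change of 1.57. Tcf7, encoding TCF1, a transcription factor of early T lineage commitment, lay at 2.07 and 2.29 TPM in wild type and 83.8 and 51.4 TPM in CBL mutant HSPC (log2 fold change 4.39 ± 0.23 SE, adjusted p = 0.00145). Lck, the kinase that starts T cell receptor signalling, lay at 1.18 and 2.403 TPM against 32.5 and 17.7 TPM (log2 fold change 3.20 ± 0.35 SE, adjusted p = 0.0183). Both genes were called in the fit of 8 HSPC libraries as well, and CBL mutant replicate 1 was the highest library for each. Lat, the adaptor downstream of LCK and ZAP70, lay at 1.67 and 2.07 TPM against 26.2 and 10.9 TPM (log2 fold change 2.65 ± 0.40 SE, adjusted p = 0.0355), and this call was not made in that fit (adjusted p = 0.25).

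Transcripts of the T cell receptor loci were higher as well. Of 99 such genes with a value, 21 were tested, 13 of them through 1 group only. Of the 21, 12 were called higher (57.1%, against 2.66% of all genes) and none lower. Of the 12, 10 had entered through the CBL mutant group only, so the count and the median of 3.14 describe genes that the filter itself kept for being high there. Trbc1, a constant region of the beta chain, lay at 0.867 and 2.92 TPM against 73.9 and 27.7 TPM (log2 fold change 4.10 ± 0.59 SE, adjusted p = 0.0392). Trbc2, the other beta constant region, lay at 0.833 and 1.11 TPM against 29.9 and 28.02 TPM (log2 fold change 3.93 ± 0.13 SE, adjusted p = 0.000189). Trbj1-3 was listed at 0 in both wild type libraries and lay at 90.8 and 25.05 TPM in the mutant ones. The constant regions of the gamma chain moved too. Tcrg-C1 lay at 1.65 and 1.99 TPM against 20.5 and 27.6 TPM (log2 fold change 3.14 ± 0.17 SE, adjusted p = 0.00107) and Tcrg-C2 at 0.529 and 0.756 TPM against 24.03 and 20.7 TPM (log2 fold change 3.83 ± 0.15 SE, adjusted p = 0.000305). In the same fit of 8 libraries 11 of the receptor genes and 9 of the T cell genes were called higher, 5 genes being on both lists. Without wild type replicate 1, and likewise without replicate 2, 2 genes of each list were called.

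Several genes that define mature T cells did not pass the filter and were not tested, so they could not be called. These were Cd3e, Cd3g, Cd4, Cd8a and Cd8b1. Cd3e lay at 0.232 and 0.178 TPM in wild type and 0.0369 and 0.0333 TPM in CBL mutant HSPC, and Cd4, Cd8a and Cd8b1 were under 1 TPM in all 4 libraries. Cd3d lay at 1.07 and 1.09 TPM against 1.57 and 1.62 TPM and was not called (log2 fold change 0.32 ± 0.17 SE, adjusted p = 0.293). Cd3g lay at 0.205 and 0.507 TPM against 0.402 and 1.31 TPM. Trac, the constant region of the alpha chain, lay at 0.519 and 0.977 TPM against 4.33 and 1.53 TPM and was not called. Ptcra, the surrogate alpha chain of thymocytes, was listed at 0 in all 4 libraries and was not tested. Gata3 and Bcl11b, transcription factors of T lineage commitment, had log2 fold changes of 1.49 and 1.24 with adjusted p = 0.0565 and 0.0559. The summed level of the 39 T cell genes was 86.7 and 91.6 TPM in wild type and 459 and 292 TPM in CBL mutant HSPC. T cell receptor genes took 0.000883% and 0.00202% of the TPM in wild type and 0.0728% and 0.0296% in CBL mutant HSPC.

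Markers of natural killer cells were mostly not called. Of 37 such genes with a value, 12 were tested, 2 of them through 1 group only, and 1 rose (8.33%, against 2.66% of all genes). It was Gzma, a granzyme of cytotoxic lymphocytes, at 0.127 and 0.286 TPM against 14.1 and 5.83 TPM (log2 fold change 3.08 ± 0.38 SE, adjusted p = 0.0205). Gzma had entered the test only because it was high in CBL mutant HSPC. Ncr1, the receptor NKp46, was under 0.35 TPM in all 4 libraries, and 23 of the 37 genes were under 1 TPM throughout. Their summed level was 339.9 and 373 TPM in wild type and 282 and 357 TPM in CBL mutant HSPC.

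Immunoglobulin genes and some plasma cell genes were among the strongest decreases, as was Ngfr, described below. Of 25 immunoglobulin genes with a value 22 were tested, and 20 were called lower (90.9%, against 3.09% of all genes) and none higher. The 3 that had entered through 1 group only were all among the 20. The median log2 fold change was -6.36. Igkc, the constant region of the kappa light chain, lay at 41192 and 48840 TPM in wild type and 234 and 451 TPM in CBL mutant HSPC (log2 fold change -7.11 ± 0.32 SE, adjusted p = 0.00107). Igkj1, a joining segment of the same locus, lay at 4854 and 4971 TPM against 17.8 and 23.9 TPM (log2 fold change -7.83 ± 0.15 SE, adjusted p = 1.54e-05). Ighj1, a heavy chain joining segment, lay at 1626 and 1916 TPM against 87.8 and 43.4 TPM (log2 fold change -4.81 ± 0.34 SE, adjusted p = 0.00758). The CBL mutant values of these genes were all below 100 TPM except for Igkc. The fit of 8 HSPC libraries called 13 of the 20 lower, and 11 and 10 were called without wild type replicate 1 and 2. Segments of one locus are short and alike, so the division of reads among them is uncertain.

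Plasma cell genes that are not immunoglobulins fell with them. Of 25 tested genes of this list, 5 of them kept through 1 group only, 11 were called lower (44%, against 3.09% of all genes) and none higher. Igkc and Ighm were among the 11, and 3 of the 11 had entered through the wild type group only. The list's median was -0.89. Jchain, the joining chain of polymeric antibodies, lay at 1284 and 1379 TPM against 18.9 and 30.8 TPM (log2 fold change -5.73 ± 0.23 SE, adjusted p = 0.000534). It was called under all 20 alternatives. Mzb1, a chaperone of antibody assembly, lay at 43.4 and 45.8 TPM against 5.19 and 1.34 TPM (log2 fold change -3.58 ± 0.48 SE, adjusted p = 0.0355). Sdc1, the plasma cell surface marker CD138, lay at 5.44 and 6.42 TPM against 0.147 and 0.132 TPM (log2 fold change -2.60 ± 0.17 SE, adjusted p = 0.00256). The unfolded protein response list, which covers secretory genes that other cells share, had no called member among 28 after rescaling. Without rescaling 11 of its members were called higher and none lower. Xbp1, a transcription factor of that response, lay at 137 and 137 TPM against 88.7 and 104 TPM (log2 fold change -0.51 ± 0.11 SE, adjusted p = 0.0546). The summed level of the 27 plasma cell genes in the table was 43706 and 51504 TPM in wild type and 986 and 1269 TPM in CBL mutant HSPC, and most of the wild type sum was Igkc. Of the plasma cell genes 4 were called in the fit of 8 HSPC libraries, 2 without wild type replicate 1 and 1 without replicate 2.

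B cell genes were divided. Of 17 tested genes 3 rose (17.6%, against 2.66% of all genes) and 3 fell (17.6%, against 3.09%), with a median of -0.64. Dntt, the terminal transferase of lymphoid progenitors, rose from 6.93 and 7.17 TPM to 16.98 and 21.5 TPM (log2 fold change 1.32 ± 0.14 SE, adjusted p = 0.0111). Cd72, a B cell coreceptor, rose from 3.32 and 3.98 TPM to 10.1 and 7.04 TPM (log2 fold change 1.03 ± 0.19 SE, adjusted p = 0.0427). The third was Il7r, kept through the CBL mutant group only. The lower genes were Iglc2, a lambda light chain constant region, Pou2af1, a coactivator of immunoglobulin genes, and Fcrla. Pou2af1 lay at 8.37 and 7.49 TPM against 1.62 and 0.305 TPM (log2 fold change -2.27 ± 0.34 SE, adjusted p = 0.0317). Cd79a, a signalling chain of the B cell receptor, lay at 27.6 and 26.9 TPM against 8.09 and 2.06 TPM and was not called (log2 fold change -2.42 ± 0.53 SE, adjusted p = 0.073). The part that a differing share of plasma cells in the marrow fractions has in these values was not tested.

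**Figure D2:**
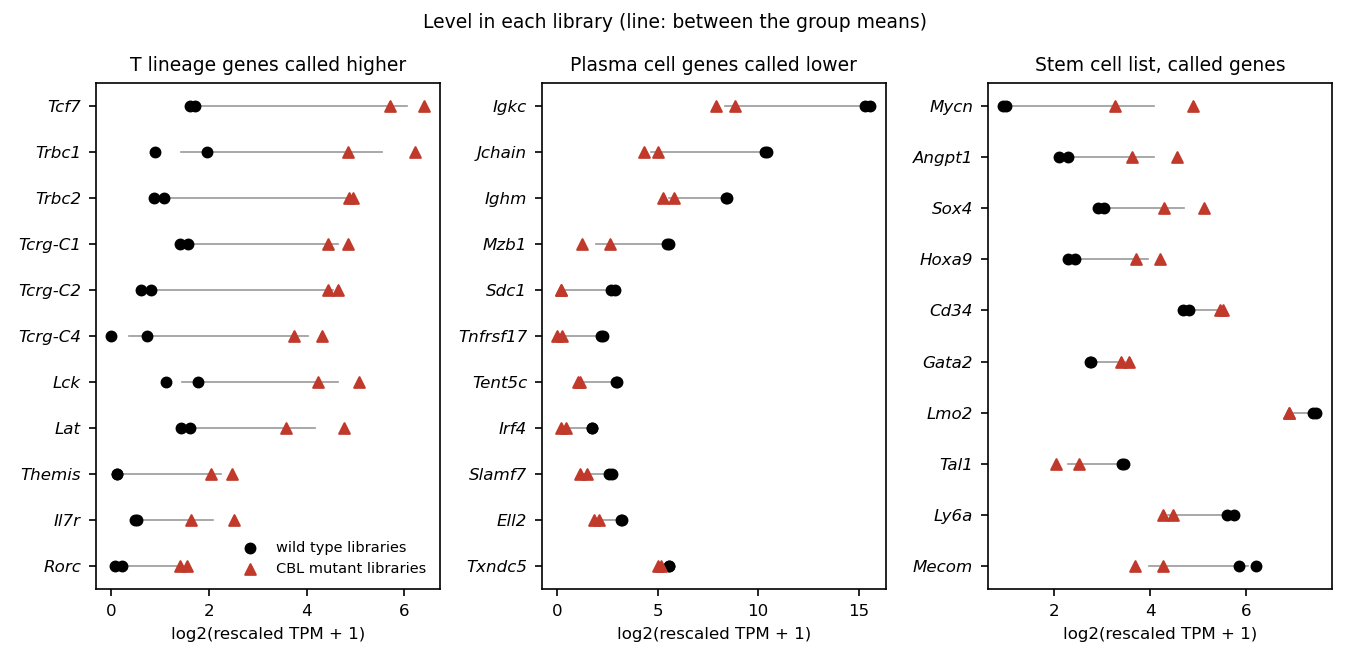
Level of the called genes of 3 groups in each library, as log2(rescaled TPM + 1) on the horizontal axes, with circles for the 2 wild type and triangles for the 2 CBL mutant libraries and a line between the group means. The panels hold T lineage genes called higher (Tcf7 at the top), plasma cell genes called lower (Igkc at the top) and 10 called genes of the stem cell list, of which 6 rose and 4 fell. In each gene the 2 groups are apart, as in every called gene.

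Genes of MHC class II and dendritic cells rose in part, 4 of 22 tested (18.2%, against 2.66% of all genes), with a median of 0.60. Irf4 was the 1 that fell (4.55%, against 3.09%), and it had entered the test through the wild type group only. H2-Aa, the alpha chain of the class II molecule I-A, rose from 28.2 and 30.7 TPM to 66.5 and 51.1 TPM (log2 fold change 0.96 ± 0.14 SE, adjusted p = 0.0281). H2-Ab1, its beta chain, lay at 37.9 and 43.1 TPM against 91.8 and 65.5 TPM (log2 fold change 0.92 ± 0.17 SE, adjusted p = 0.0442). Clec9a, a receptor of conventional dendritic cells, lay at 1.003 and 1.33 TPM against 3.57 and 2.92 TPM (log2 fold change 0.97 ± 0.18 SE, adjusted p = 0.0429). H2-DMa, which helps load peptide onto class II, was the other gene called higher. The invariant chain Cd74 lay at 99.3 and 108 TPM against 148 and 109 TPM and was not called (log2 fold change 0.29 ± 0.16 SE, adjusted p = 0.303). None of the 4 was called in the fit of 8 HSPC libraries or without wild type replicate 1 or 2.

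Genes of the erythroid lineage were lower in CBL mutant HSPC. Of the erythroid and haem list, 46 genes had a value and 45 were tested, 2 of them through 1 group only, and 27 of the 45 (60%) were called lower and none higher, against 3.09% of all genes. The median log2 fold change was -1.05, and -0.77 without rescaling. The list spans the lineage's transcription factors, membrane proteins, haem enzymes and globins, and each of these classes had called members. The promoters of 3 called genes that hold the letters of a GATA factor motif in the 250 bases before the start site are shown next, because GATA1 and KLF1 are known factors of erythroid genes. The sequences are those of RefSeq (GRCm38.p6), written on the gene's strand, for Hbb-bs (chr7:103827929-103828178, minus strand), Epor (chr9:21963577-21963826, minus strand) and Trim10 (chr17:36869324-36869573, plus strand). Capitals mark AGATAA, also read as TTATCT on the other strand, and CCACACCC, a KLF1 motif searched on both strands.
Hbb-bs: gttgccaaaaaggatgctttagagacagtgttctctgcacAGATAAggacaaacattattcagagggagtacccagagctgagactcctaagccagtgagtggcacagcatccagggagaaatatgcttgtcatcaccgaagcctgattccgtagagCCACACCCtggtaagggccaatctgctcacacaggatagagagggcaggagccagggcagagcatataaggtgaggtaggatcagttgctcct
Epor: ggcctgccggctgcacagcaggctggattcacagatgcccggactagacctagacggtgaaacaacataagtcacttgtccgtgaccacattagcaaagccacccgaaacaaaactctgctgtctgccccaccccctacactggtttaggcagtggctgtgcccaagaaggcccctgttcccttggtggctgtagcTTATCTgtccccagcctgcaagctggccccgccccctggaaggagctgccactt
Trim10: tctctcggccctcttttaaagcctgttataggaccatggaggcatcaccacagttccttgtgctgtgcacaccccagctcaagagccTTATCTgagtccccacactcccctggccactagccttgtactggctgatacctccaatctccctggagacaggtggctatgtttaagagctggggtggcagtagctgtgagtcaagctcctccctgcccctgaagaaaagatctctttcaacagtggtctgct

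Of the 27 called erythroid genes 20 matched a RefSeq entry, with 23 promoters. AGATAA or its reverse complement stood in 5 of the 23 (21.7%), against 2 of 14 promoters (14.3%) of the erythroid genes that were not called, 6.13% of the promoters of all genes tested and 9.99% of all 32851 promoters. CCACACCC stood in 1 of the 23, that of Hbb-bs, and in 3.35% of the promoters of all genes tested. These matches describe letters in the window and are no evidence of binding.

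Gata1, the master regulator of the erythroid and megakaryocytic lineages, lay at 16.5 and 18.1 TPM in wild type and 7.801 and 7.14 TPM in CBL mutant HSPC (log2 fold change -1.11 ± 0.11 SE, adjusted p = 0.00983). Klf1, the erythroid Krüppel-like factor, lay at 19.1 and 19.95 TPM against 6.71 and 7.58 TPM (log2 fold change -1.34 ± 0.11 SE, adjusted p = 0.00717). Nfe2, a factor of globin expression and platelet formation, lay at 145 and 155 TPM against 131 and 129 TPM and was not called (log2 fold change -0.21 ± 0.09 SE, adjusted p = 0.221). Among membrane proteins, Cldn13, a claudin of mouse erythroid cells, lay at 20.2 and 23.4 TPM against 7.81 and 6.84 TPM (log2 fold change -1.45 ± 0.12 SE, adjusted p = 0.00748). Slc4a1, the anion exchanger band 3, fell by 1.57 on the log2 scale. Of the haem enzymes Alad, Uros and Cpox fell by 0.59 to 0.88, whereas Alas2, Urod, Ppox and Fech were not called. Tfrc, the transferrin receptor, had a log2 fold change of 0.52 ± 0.11 (SE) and was not called (adjusted p = 0.0582).

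The globins did not move together. Hba-a1 lay at 233 and 264 TPM in wild type and 71.4 and 46.4 TPM in CBL mutant HSPC (log2 fold change -2.09 ± 0.21 SE, adjusted p = 0.0119). Hba-a2 lay at 199 and 230.3 TPM against 78.1 and 64.1 TPM (log2 fold change -1.58 ± 0.13 SE, adjusted p = 0.00748). Hbb-bs, a beta globin of the adult mouse, lay at 158 and 170.0 TPM against 45.03 and 37.2 TPM (log2 fold change -1.97 ± 0.12 SE, adjusted p = 0.00167). For all 3 genes the mutant libraries were below the wild type ones, and the groups were apart in every called gene. Hbb-bt, the neighbouring beta globin of nearly the same sequence, lay at 94.4 and 107 TPM against 469.8 and 196 TPM and was not called (log2 fold change 1.58 ± 0.43 SE, adjusted p = 0.107). The sum of Hbb-bs and Hbb-bt was 251.9 and 278 TPM in wild type and 515 and 233 TPM in CBL mutant HSPC, so the groups overlapped. The sum of the alpha globins was 432 and 494 TPM against 149.5 and 110.5 TPM. Reads of near-identical copies can be divided between them in more than 1 way, so the values of single globins are uncertain. In the fit of 8 HSPC libraries none of the 27 erythroid genes was called. Nor were these calls made without wild type replicate 1 or 2.

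**Figure D3:**
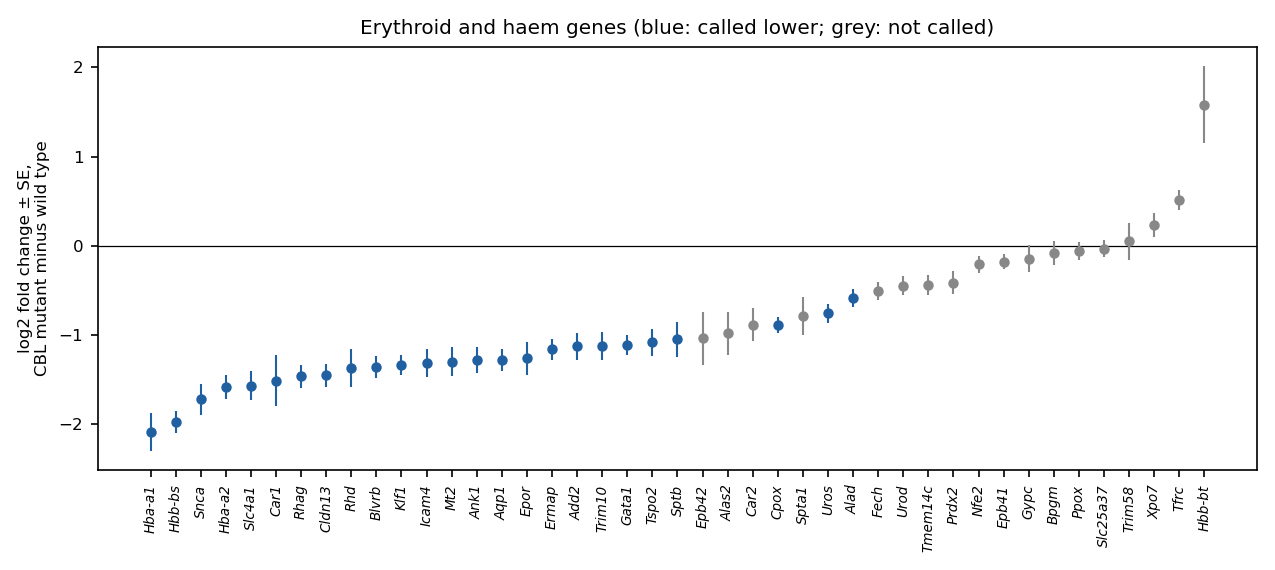
Log2 fold change of CBL mutant minus wild type HSPC with its SE (vertical axis) for 43 of the 45 tested erythroid and haem genes (horizontal axis, ordered by fold change), with the 25 called lower among them in blue and the others in grey. The values run from -2.09 for Hba-a1 to 1.58 for Hbb-bt, and 39 of the 43 are below 0.

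Among megakaryocyte and platelet genes 2 of 24 rose (8.33%, against 2.66% of all genes) and 3 fell (12.5%, against 3.09%). The median was -0.16 (0.16 without rescaling). Thbs1 had entered the test through the CBL mutant group only, and Gp5 through the wild type group only. Pf4, a chemokine of platelet granules, lay at 16.5 and 20.6 TPM in wild type and 0.697 and 1.32 TPM in CBL mutant HSPC (log2 fold change -3.29 ± 0.20 SE, adjusted p = 0.0018), also called in the fit of 8 HSPC libraries. Gp5, a platelet glycoprotein, lay at 2.21 and 1.92 TPM against 0.423 and 0.202 TPM (log2 fold change -1.23 ± 0.20 SE, adjusted p = 0.0331). Thbs1, which encodes thrombospondin, rose from 0.701 and 0.859 TPM to 14.9 and 7.57 TPM (log2 fold change 2.71 ± 0.30 SE, adjusted p = 0.0158). Lat, which platelets share with T cells, was the other gene that rose, and Tmem40 the third that fell. The lineage's integrin Itga2b had a log2 fold change of -0.07 ± 0.27 (SE) and was not called. For Pf4 the 2 groups were more than 10-fold apart.

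Of 20 mast cell, basophil and eosinophil genes 5 rose (25%, against 2.66% of all genes) and 1 fell (5%, against 3.09%), with a median of 0.20. Of the 5, 1 had entered the test through the CBL mutant group only. Mcpt8, a basophil protease, rose from 22.8 and 28.5 TPM to 56.5 and 74.7 TPM (log2 fold change 1.31 ± 0.17 SE, adjusted p = 0.0213). Ear2, an eosinophil-associated ribonuclease, rose from 18.6 and 22.8 TPM to 50.8 and 42.8 TPM (log2 fold change 1.14 ± 0.14 SE, adjusted p = 0.0173), and its close relative Ear1 was called as well, though reads of near copies can be shared between them. Fcer1a, the alpha chain of the IgE receptor, fell from 6.02 and 6.79 TPM to 1.26 and 0.715 TPM (log2 fold change -1.91 ± 0.19 SE, adjusted p = 0.0103). Of the basophil genes, Mcpt8 thus rose and Fcer1a fell. Neither call was made in the fit of 8 HSPC libraries.

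Neutrophil and monocyte genes were lower in part. Of 42 genes of secondary and tertiary granules and mature neutrophils 10 were lower (23.8%, against 3.09% of all genes) and 1 higher (2.38%, against 2.66%). The median was -0.39 after rescaling and -0.03 without. Without rescaling 10 were called lower and 1 higher too, but the higher gene was not the same one. Orm1, an acute phase glycoprotein, lay at 125 and 151 TPM in wild type and 58.1 and 51.6 TPM in CBL mutant HSPC (log2 fold change -1.31 ± 0.13 SE, adjusted p = 0.00929). Chil1, a chitinase-like protein, lay at 307 and 329 TPM against 174 and 162 TPM (log2 fold change -0.92 ± 0.10 SE, adjusted p = 0.0123). Olfm4, olfactomedin of a neutrophil subset, lay at 58.5 and 60.4 TPM against 33.3 and 27.99 TPM (log2 fold change -0.94 ± 0.11 SE, adjusted p = 0.016). Lrg1, stored in neutrophil granules, lay at 236 and 253 TPM against 144 and 138 TPM (log2 fold change -0.79 ± 0.10 SE, adjusted p = 0.0174). The groups did not overlap for these 4 genes, as for every called gene and 59% of all genes tested. None of the 4 was called in the fit of 8 HSPC libraries. S100a8 had a log2 fold change of -0.74 ± 0.24 (SE) and Ly6g of -0.31 ± 0.18, and neither was called.

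The gene of this list that rose was BC100530, a stefin A family member, an inhibitor of cysteine proteases, which lay at 17.4 and 17.6 TPM against 385 and 128 TPM (log2 fold change 3.59 ± 0.53 SE, adjusted p = 0.0412). CBL mutant replicate 1 was about 3-fold above replicate 2. Of 7 tested stefin A genes 2 rose (28.6%, against 2.66% of all genes), and the median was 0.86. The other was BC117090, which had entered the test through the CBL mutant group only. Stefin A genes lie in a cluster of near copies, so the division of reads among them is uncertain.

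Among 21 genes of myeloid progenitors and primary granules 1 rose (4.76%, against 2.66% of all genes) and 2 fell (9.52%, against 3.09%). The median was -0.22 (0.15 without rescaling). Irf8, a transcription factor of monocyte and dendritic cell fate, rose from 44.3 and 42.5 TPM to 62.9 and 70.4 TPM (log2 fold change 0.61 ± 0.10 SE, adjusted p = 0.0337). Hp, encoding haptoglobin, fell from 1176 and 1281 TPM to 606 and 659 TPM (log2 fold change -0.96 ± 0.11 SE, adjusted p = 0.0161), and Serpinb1a, an inhibitor of neutrophil elastase, was the other lower gene. The primary granule enzymes Mpo and Elane had log2 fold changes of -0.22 ± 0.40 and -0.58 ± 0.45 (SE), were not called, and differed by more than 2-fold between the CBL mutant libraries. Of 32 monocyte and macrophage genes 5 fell (15.6%, against 3.09% of all genes) and none rose, with a median of -0.22. Without rescaling 3 were called lower and 4 higher, and the median was 0.05. Lyz2, lysozyme M, lay at 5952 and 6659.8 TPM against 3103 and 3369.8 TPM (log2 fold change -0.96 ± 0.13 SE, adjusted p = 0.0221). Ccl6, a chemokine of myeloid cells, lay at 21.8 and 23.7 TPM against 12.7 and 10.8 TPM (log2 fold change -0.90 ± 0.12 SE, adjusted p = 0.0195). Csf1r, the defining receptor of the lineage, lay at 14.4 and 13.3 TPM against 11.001 and 15.2 TPM and was not called.

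**Figure D4:**
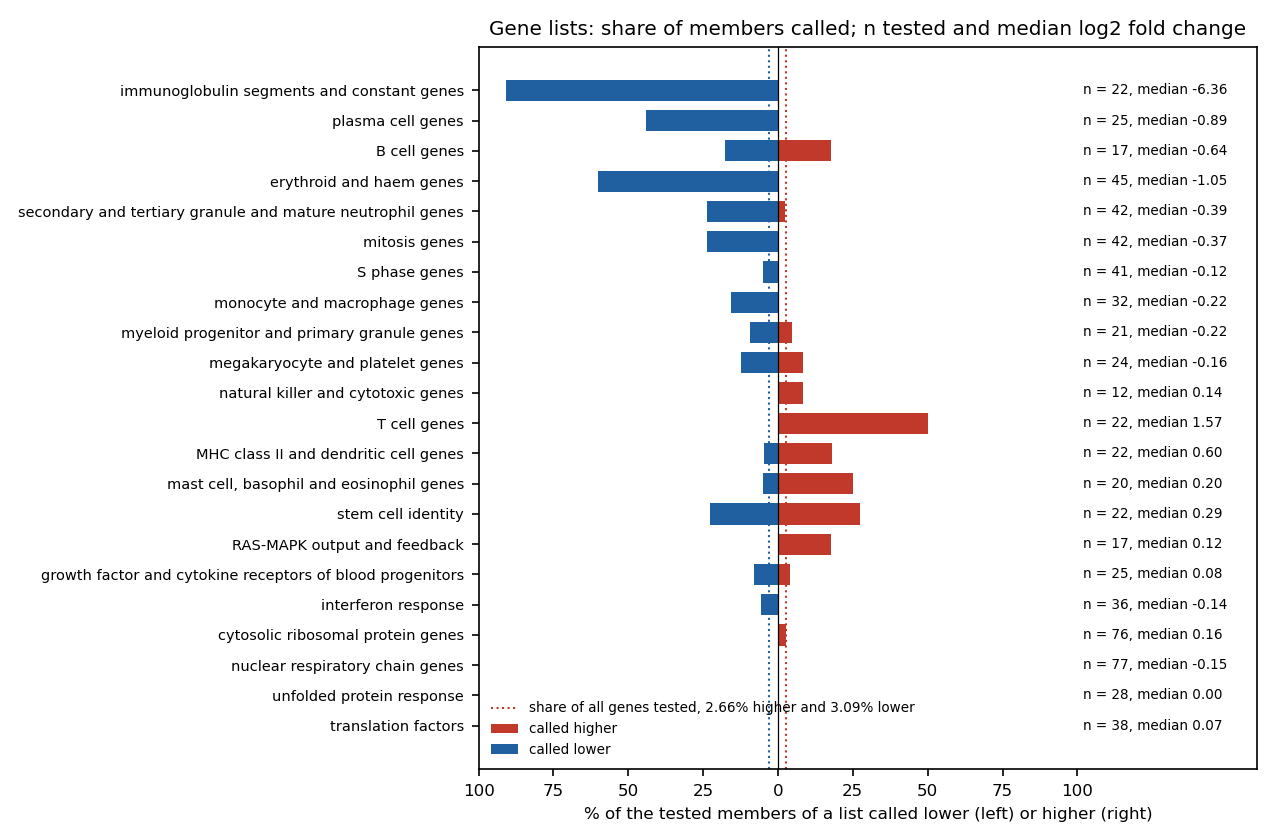
Share of the tested members of 22 gene lists called lower (blue bars, to the left) or higher (red bars, to the right) in CBL mutant HSPC, in percent, with the number tested and the median log2 fold change at the right and the shares of all genes, 2.66% higher and 3.09% lower, as dotted lines. Immunoglobulin, erythroid and plasma cell genes extend farthest to the left and T cell genes farthest to the right.

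Stem cell genes moved in both directions. Of 37 genes of the list 22 were tested, 3 of them through 1 group only. Of the 22, 6 rose (27.3%, against 2.66% of all genes) and 5 fell (22.7%, against 3.09%). Of the 6, 1 had entered through the CBL mutant group only. The groups were apart in all 22, as they were in 59% of all genes tested. Mecom, encoding EVI1, a factor of long-term stem cells, lay at 73.04 and 57.4 TPM in wild type and 18.3 and 11.8 TPM in CBL mutant HSPC (log2 fold change -2.06 ± 0.22 SE, adjusted p = 0.016). It was the only one of the 11 that was called in the fit of 8 HSPC libraries too (adjusted p = 0.0344). Ly6a, the surface antigen Sca-1, lay at 47.5 and 53.4 TPM against 21.4 and 18.4 TPM (log2 fold change -1.30 ± 0.12 SE, adjusted p = 0.00762). Tal1 and Lmo2, which act in a complex with GATA1, fell as well. Tal1 lay at 9.62 and 9.92 TPM against 4.71 and 3.13 TPM (log2 fold change -1.15 ± 0.18 SE, adjusted p = 0.0321).

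The 6 that rose were Hoxa9, Cd34, Gata2, Sox4, Angpt1 and Mycn. Hoxa9, a homeobox factor of myeloid progenitors, lay at 4.37 and 3.89 TPM against 17.4 and 12.1 TPM (log2 fold change 1.60 ± 0.18 SE, adjusted p = 0.0153). Cd34, a surface sialomucin of progenitors, lay at 24.95 and 27.3 TPM against 44.9 and 43.4 TPM (log2 fold change 0.74 ± 0.09 SE, adjusted p = 0.0191). Gata2, a factor of early progenitors and of mast cells, lay at 5.73 and 5.84 TPM against 10.8 and 9.54 TPM (log2 fold change 0.72 ± 0.12 SE, adjusted p = 0.0371). In all 3, as in every called gene, the groups did not overlap. Sox4, a factor of early lymphoid and stem cells, lay at 6.59 and 7.28 TPM against 33.8 and 18.5 TPM (log2 fold change 1.72 ± 0.28 SE, adjusted p = 0.0399), and Angpt1, the ligand of TIE2, at 3.27 and 3.85 TPM against 22.7 and 11.3 TPM (log2 fold change 1.91 ± 0.32 SE, adjusted p = 0.0421). In Sox4, Angpt1 and Mycn the first CBL mutant library was well above the second. Mycn, a relative of Myc, was near 1 TPM in wild type and lay at 28.8 and 8.71 TPM in CBL mutant HSPC (log2 fold change 3.12 ± 0.54 SE, adjusted p = 0.0469). No stem cell gene was called without wild type replicate 1 or 2.

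Other homeobox genes and transcription factors were also divided. Of 10 tested HOX genes and cofactors 1 rose (10%), Hoxa9 as above, and 2 fell (20%), against 2.66% and 3.09% of all genes. One of those that fell was Hoxb4, linked to stem cell expansion, at 3.65 and 2.85 TPM against 1.07 and 1.27 TPM (log2 fold change -0.97 ± 0.18 SE, adjusted p = 0.0429). Meis1, the cofactor of HOXA9, lay at 1.605 and 2.12 TPM against 10.3 and 3.69 TPM and was not called (log2 fold change 1.35 ± 0.43 SE, adjusted p = 0.128). In the list of RUNX family and myeloid transcription factors 6 of 40 rose (15%, against 2.66% of all genes) and 5 fell (12.5%, against 3.09%). Of these calls 1 in each direction had entered the test through 1 group only. Runx3, a paralog of Runx1, rose from 15.9 and 13.02 TPM to 28.04 and 27.97 TPM (log2 fold change 0.92 ± 0.12 SE, adjusted p = 0.0194). Cbfa2t3, encoding the corepressor ETO2, rose from 6.33 and 5.86 TPM to 11.2 and 11.6 TPM (log2 fold change 0.80 ± 0.11 SE, adjusted p = 0.0235). The granulocyte and monocyte factors Spi1 and Cebpa had log2 fold changes of -0.39 and 0.14 and were not called.

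Genes of the G1 phase moved in both directions. In the list of cyclin D and G1 kinase genes 2 of 16 rose (12.5%, against 2.66% of all genes), Ccnd1 and Ccnd2, and 2 fell (12.5%, against 3.09%), Ccne1 and Cdkn2c. Cdkn2c, an inhibitor of CDK4 and CDK6, lay at 73.8 and 80.7 TPM in wild type and 38.2 and 38.9 TPM in CBL mutant HSPC (log2 fold change -0.98 ± 0.09 SE, adjusted p = 0.00883). Ccne1, encoding cyclin E1, lay at 23.8 and 24.2 TPM against 16.6 and 15.6 TPM (log2 fold change -0.55 ± 0.09 SE, adjusted p = 0.0371). Of 41 S phase genes 2 fell (4.88%), E2f2 and Ccne1, and none rose, with a median of -0.12 (0.24 without rescaling). Without rescaling 5 S phase genes were called higher and none lower.

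Of 42 mitosis genes 10 were lower (23.8%, against 3.09% of all genes) and none higher. All 42 fold changes were below 0 after rescaling, with a median of -0.37, but without rescaling the median was -0.02 and no mitosis gene was called. The changes were small. Ccnb1 and Ccnb2, the B-type cyclins that activate CDK1, lay at 71.5 and 76.5 TPM against 48.4 and 48.3 TPM (log2 fold change -0.60 ± 0.09 SE, adjusted p = 0.0268) and at 116 and 125 TPM against 79.2 and 80.5 TPM (log2 fold change -0.58 ± 0.09 SE, adjusted p = 0.0317). Hmmr and Nusap1, proteins of the mitotic spindle, fell by 0.54 and 0.51 on the log2 scale. No mitosis gene was called in the fit of 8 HSPC libraries or without wild type replicate 1 or 2. The promoters of both cyclins are shown because CCAAT boxes are a known feature of genes expressed in G2 and mitosis. They are the 250 RefSeq bases (GRCm38.p6) before the start site of Ccnb1 (chr13:100786487-100786736, minus strand) and Ccnb2 (chr9:70421555-70421804, minus strand). Capitals mark CCAAT and TTTGAA, the core of the cell cycle homology region, both searched on both strands.
Ccnb1: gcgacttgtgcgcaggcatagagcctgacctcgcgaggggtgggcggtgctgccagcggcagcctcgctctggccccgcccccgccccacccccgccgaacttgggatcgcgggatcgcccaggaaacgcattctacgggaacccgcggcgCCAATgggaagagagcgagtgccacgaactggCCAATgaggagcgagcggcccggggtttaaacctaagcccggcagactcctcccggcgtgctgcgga
Ccnb2: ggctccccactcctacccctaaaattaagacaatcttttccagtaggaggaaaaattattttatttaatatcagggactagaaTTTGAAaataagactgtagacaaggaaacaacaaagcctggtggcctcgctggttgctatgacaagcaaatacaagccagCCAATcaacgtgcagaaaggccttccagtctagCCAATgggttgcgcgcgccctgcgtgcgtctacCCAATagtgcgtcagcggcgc

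CCAAT or its reverse complement stood in 9 of 10 promoters of the mitosis genes called lower (90%), and in 19 of 26 (73.1%) of those not called, against 35.7% of the promoters of all genes tested and 33.8% of all promoters. TTTGAA stood in 3 of 10 and in 9 of 26 (34.6%), against 11% of the promoters of genes tested.

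Genes of cell death and stress moved singly. In the BCL2 family 3 of 14 rose (21.4%, against 2.66% of all genes) and none fell, and 1 of the 3 had entered through the CBL mutant group only. Bcl2, the founding survival factor, rose from 4.11 and 3.83 TPM to 9.44 and 8.52 TPM (log2 fold change 1.004 ± 0.13 SE, adjusted p = 0.0192). Bbc3, encoding the death-promoting PUMA, rose from 4.16 and 4.69 TPM to 9.08 and 7.65 TPM (log2 fold change 0.78 ± 0.14 SE, adjusted p = 0.0412), and Bcl2l14 was the third. Of 21 p53 targets 2 rose (9.52%), Bbc3 and Ddit4, and Fas fell (4.76%), against 2.66% and 3.09% of all genes. Ddit4, which encodes the mTORC1 inhibitor REDD1, lay at 5.35 and 5.77 TPM against 28.5 and 16.4 TPM (log2 fold change 1.79 ± 0.25 SE, adjusted p = 0.0284). Fas, a death receptor, lay at 6.697 and 5.85 TPM against 2.56 and 2.56 TPM (log2 fold change -1.03 ± 0.14 SE, adjusted p = 0.0229).

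After rescaling, called genes of the inflammatory lists were all lower, apart from 1 immediate early gene. Of 36 interferon response genes 2 fell (5.56%, against 3.09% of all genes), the nucleic acid sensor Zbp1 among them, and none rose. Zbp1 lay at 8.27 and 10.2 TPM in wild type and 4.38 and 3.68 TPM in CBL mutant HSPC (log2 fold change -1.02 ± 0.16 SE, adjusted p = 0.0294). Of 27 NF-kB and inflammation genes 3 fell (11.1%) and none rose, the cytokine Il1b from 3.86 and 4.498 TPM to 1.17 and 0.714 TPM (log2 fold change -1.42 ± 0.19 SE, adjusted p = 0.0217), and also Tnfaip2 and the adaptor Myd88. Among 7 interferon-induced transmembrane genes Ifitm1 and Ifitm3 fell (28.6%), which encode membrane proteins that hinder viral entry. Ifitm1 lay at 74.8 and 89.02 TPM against 33.5 and 21.2 TPM (log2 fold change -1.58 ± 0.23 SE, adjusted p = 0.0305), and Ifitm3 at 542 and 622 TPM against 315 and 238 TPM (log2 fold change -1.08 ± 0.16 SE, adjusted p = 0.0299). Of 18 immediate early genes Dusp2 rose and Zfp36 fell (5.56% each). The directions depended on the rescaling. Without it 4 interferon response genes were called higher and 2 lower, and 6 NF-kB and inflammation genes higher and 3 lower. Of the immediate early genes 3 were then called higher and 1 lower. No member of these lists was called in the fit of 8 HSPC libraries.

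Metabolic lists held small numbers of calls, and housekeeping lists next to none. Of 26 glycolysis genes 4 fell (15.4%, against 3.09% of all genes), Hk1, Hk3, Slc16a3 and Pdk3, and Pdk1 rose, with a median of -0.21 (0.13 without rescaling). Without rescaling 6 glycolysis genes were called higher and none lower. Hk3, a hexokinase of myeloid cells, lay at 256 and 245 TPM in wild type and 159 and 169 TPM in CBL mutant HSPC (log2 fold change -0.61 ± 0.10 SE, adjusted p = 0.0317). Cybb and Ncf1, subunits of the phagocyte NADPH oxidase, were the 2 of 9 (22.2%) that fell after rescaling. Without rescaling 2 of the 9 were called higher and none lower. Psat1 and Phgdh, enzymes of serine synthesis, were the 2 of 17 one-carbon genes (11.8%, against 2.66% of all genes) that rose. Psat1 lay at 29.02 and 30.6 TPM against 45.8 and 44.1 TPM (log2 fold change 0.58 ± 0.09 SE, adjusted p = 0.03). Of 76 cytosolic ribosomal protein genes 2 rose (2.63%, near the 2.66% of all genes), Rpl10a and Rpl12. In this list 69 fold changes were above 0, with a median of 0.16. Without rescaling 70 were called higher and the median was 0.53. None of 77 nuclear respiratory chain genes, 13 mitochondrially encoded genes, 38 translation factors, 18 heat shock genes or 26 cholesterol genes was called after rescaling. Without rescaling 27 translation factors, 12 heat shock genes, 11 respiratory chain genes, 7 cholesterol genes and 1 mitochondrially encoded gene were called higher, and 1 heat shock and 1 cholesterol gene lower. The medians of these lists lay between -0.19 and 0.08, and between 0.18 and 0.44 without rescaling.

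The remaining genes with the largest called changes at a mean log2 level of at least 3 belonged to no single lineage. Predicted genes and immunoglobulin and T cell receptor genes were left out of this ranking. Ngfr, the nerve growth factor receptor, a marker of some stromal and neural cells, lay at 170.4 and 165 TPM in wild type and at 0.0271 and 0.0369 TPM in CBL mutant HSPC (log2 fold change -7.35 ± 0.10 SE, adjusted p = 8.18e-06). The deposited Ngfr values were 49.6 and 168 TPM in RUNX1 mutant and 92.0 and 92.6 TPM in double mutant HSPC, so the 2 CBL mutant libraries were the lowest of the 8. In wild type Ly6G+ cells it was at 0.351 and 0.136 TPM, and in double mutant Ly6G+ cells at 62.1 and 83.7 TPM. The labels name no vector and no reporter gene. Whether these transcripts came from the mouse's own gene or from an introduced sequence was not tested, so the difference cannot be assigned to the CBL mutation. Ngfr was called in all 19 alternatives in which it was tested.

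Among the higher genes, Mc5r, a melanocortin receptor, lay at 2.94 and 3.19 TPM against 27.1 and 16.8 TPM (log2 fold change 2.46 ± 0.22 SE, adjusted p = 0.00899). Aff3, a nuclear factor of lymphoid cells and a partner in leukaemia fusions, lay at 3.47 and 2.69 TPM against 23.1 and 16.4 TPM (log2 fold change 2.33 ± 0.19 SE, adjusted p = 0.00748). Myl10, a myosin light chain, lay at 8.71 and 11.2 TPM against 44.4 and 55.4 TPM (log2 fold change 2.22 ± 0.16 SE, adjusted p = 0.00403). In all 3 the lowest mutant library was more than 3-fold above the highest wild type library. Mid1, an E3 ubiquitin ligase bound to microtubules, lay at 6.75 and 3.76 TPM against 25.3 and 18.8 TPM (log2 fold change 1.91 ± 0.27 SE, adjusted p = 0.0284). Slmapos2, a long non-coding RNA named for its place opposite Slmap, lay at 16.4 and 15.9 TPM against 68.4 and 78.4 TPM (log2 fold change 2.11 ± 0.10 SE, adjusted p = 0.000719). Spns2, the sphingosine-1-phosphate exporter, and Cxxc5, a CXXC zinc finger protein, rose by 1.53 and 1.51 on the log2 scale. Both were higher in CBL mutant replicate 1 than in replicate 2.

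Among the lower genes, Il1f9, encoding the cytokine IL-36 gamma, lay at 31.6 and 32.8 TPM against 6.36 and 7.32 TPM (log2 fold change -2.08 ± 0.11 SE, adjusted p = 0.000941). Hnmt, which inactivates histamine, lay at 16.2 and 18.3 TPM against 1.97 and 4.47 TPM (log2 fold change -2.17 ± 0.30 SE, adjusted p = 0.0262). Tnfsf13, encoding APRIL, a survival factor of plasma cells, lay at 33.01 and 35.3 TPM against 4.72 and 11.4 TPM (log2 fold change -2.06 ± 0.37 SE, adjusted p = 0.0494). In these 3 genes, as in every called gene and in 59% of all genes tested, the groups did not overlap. Tnfsf13 lay close to the threshold. Wfdc17, a small secreted protein of activated myeloid cells, lay at 17.98 and 20.8 TPM against 6.397 and 2.73 TPM (log2 fold change -1.95 ± 0.33 SE, adjusted p = 0.0425). Stk39, a kinase of ion transport, lay at 66.99 and 85.5 TPM against 26.98 and 21.1 TPM (log2 fold change -1.63 ± 0.17 SE, adjusted p = 0.0115). Cystm1 and Nxpe2 fell by 2.13 and 1.62 on the log2 scale. The ranking without predicted, immunoglobulin and T cell receptor genes held 30 largest changes, 15 in each direction. Of these the fit of 8 HSPC libraries called 6 of the higher and 4 of the lower ones. A fit of 6 libraries without the RUNX1 mutant group called all 30.

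Some called genes of 1 direction lay near each other. With starts within 200 kb of each other, 54 of the higher genes fell into 23 stretches and 76 of the lower genes into 30. Genes that were not called can lie between them. No such count was made over all genes tested, so whether called genes lie closer together than others was not tested. The longest were loci of antigen receptors. Ighe, Ighg2c, Ighg2b, Ighg1, Ighg3, Ighm, Ighj4, Ighj3 and Ighj1 lay at chr12:113269260-113429833 and all fell. Igkc with 5 joining segments fell at chr6:70722562-70726966, and Trbc1 and Trbc2 with 4 joining segments rose at chr6:41534323-41548352. Outside these loci H2-DMa, H2-Ab1 and H2-Aa rose at chr17:34119541-34287823, Gpr171 and P2ry14 rose at chr3:59096448-59153618, and Ifitm1 and Ifitm3 fell with Psmd13 at chr7:140881968-141010770. Gpr171 and P2ry14 encode G protein-coupled receptors, and P2ry14 lay at 0.899 and 0.656 TPM against 8.26 and 5.91 TPM (log2 fold change 2.17 ± 0.20 SE, adjusted p = 0.0085). These coordinates are those of GRCm38 and span gene starts to gene ends.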

How the data were processed

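RNA was sequenced from 12 mouse marrow libraries, and the 2 wild type and 2 CBL mutant HSPC libraries were used here. The deposited values are TPM per gene. Per the submitters' processing notes the authors used bcl2fastq, CASAVA 1.8, kallisto and the mm10 build. The version of kallisto, the annotation and the step from transcripts to genes are not given in the sources used here. TPM carries no read numbers, so depth is unknown and no counting interval can be given. Symbols from GENCODE M21 (GRCm38) were matched to 27475 of 28987 gene identifiers (94.784%). No column of per-sample values was left unused.

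Genes with 1 TPM or more in at least 2 of the 4 libraries were kept. TMM factors (unweighted, with trims of 0.3 and 0.05) rescaled the TPM, and log2(rescaled TPM + 1) was tested with limma 3.58.1 in R 4.3.3, with trend and robust moderation, 2 residual degrees of freedom and a median of 3.83 prior ones. P-values are two-sided and adjusted over the 11510 genes by the Benjamini-Hochberg method, and a gene was called at an adjusted p under 0.05. Fold changes on this scale understate those of low genes. An exact permutation test of 2 against 2 libraries cannot reach 0.05. The procedure was tested on simulated data. The 4 libraries alone entered the test because pooled fits borrow the spread of the other groups.

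Named genes are Cbl, Runx1, the 15 largest called changes in each direction at a mean log2 level of at least 3, and from each of 56 gene lists up to 4 called members in each direction with the smallest p. Symbols of predicted genes or clones and immunoglobulin and T cell receptor genes were left out of the ranking of largest changes. In the lists of immunoglobulin and T cell receptor loci, the called members with the highest mean level were taken instead. Lineage-defining members, called or not, are given beside them for reference, and other genes named were chosen after their values were seen. The comparison, the lists and the choice of test were made with earlier results of these data known. Counts cover whole lists, but some members are not reported here by name or plotted singly. In all, 20 alternatives were run. Promoters are RefSeq windows of 250 bases before the start.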

Additional observations from a re-analysis of the deposited data

How the results depend on the processing

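TPM without read numbers and 2 libraries a group limit the precision of every value. The 662 calls (306 higher, 356 lower) became 3709 (3466 higher) without rescaling and 43 (11 and 32) without a filter on low values. They became 68 (38 and 30) in a fit of 8 HSPC libraries, 50 (30 and 20) in one of 12 libraries and 42 (13 and 29) against a log2 change of 1. Without trend and robust moderation 232 genes were lower. With 1 library left out in turn, between 19 and 2258 genes were called, 5 to 1206 of them higher and 14 to 1052 lower. The cause of these shifts was not tested, except that the pooled and left-out fits change the samples and the filter changes the genes tested. In the other 10 alternatives, moderation included, the total stayed within 1.5 times 662.

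With the replicate number as a block, 231 genes were called (100 higher and 131 lower). The labels do not say that a number marks a shared mouse or day. The replicate differences of the 2 groups correlated at 0.076 across genes. This correlation cannot decide whether a mouse or day was shared, because it can stay low when few genes are affected. A shared mouse or day was thus not tested.

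Of the genes named by the rule only Runx1 changed sign in an alternative. Genes given for reference were followed without rescaling only, where Itga2b, Spry2, Nfe2, Ppox, Mpo, Csf1r and Ly6g, none of them called, turned from below to above 0. The log2 fold change of Runx1 was 0.22 without rescaling (adjusted p = 0.338), and with 1 library left out in turn it ran from -0.28 without CBL mutant replicate 2 to 0.041 without CBL mutant replicate 1. The gene was called in none of these.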

Other observations

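Some called genes stood outside the rule by which genes were named, and they were chosen after their values were seen. Gm15272, listed as a processed pseudogene at chr10:24514279-24514511, lay at 1.02 and 0 TPM after rescaling in wild type and 447 and 579 TPM in CBL mutant HSPC (log2 fold change 8.49 ± 0.36 SE, adjusted p = 0.00156). Its deposited values were 1.23 and 0 TPM in RUNX1 mutant and 825 and 863 TPM in double mutant HSPC, and in Ly6G+ cells they were 0.369 and 0 TPM in wild type and 172 and 133 TPM in double mutant libraries. It was thus high in the 6 libraries labelled as carrying a CBL mutation and near 0 in the other 6. Gm15280, listed as an unprocessed pseudogene, lay at 1.6004 and 1.36 TPM and 244 and 77.5 TPM (log2 fold change 5.81 ± 0.56 SE, adjusted p = 0.019), and Gm20400, listed as an antisense transcript, at 39.5 and 35.8 TPM and 220.4 and 249 TPM (log2 fold change 2.61 ± 0.11 SE, adjusted p = 0.000354). All 3 were also called in the fit of 8 HSPC libraries.

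Npy, a neuropeptide, lay at 0.516 and 0.593 TPM in wild type and 35.3 and 15.8 TPM in CBL mutant HSPC (log2 fold change 3.99 ± 0.37 SE, adjusted p = 0.0119). Fgf3, a fibroblast growth factor that ends 85.5 kb before the start of Ccnd1 on chromosome 7, lay at 1.405 and 1.699 TPM and 14.97 and 11.1 TPM (log2 fold change 2.45 ± 0.18 SE, adjusted p = 0.00403). Its deposited values were 108 and 6.83 TPM in RUNX1 mutant HSPC and 2.25 and 1.60 TPM in double mutant HSPC. The deposited Ccnd1 values were 2.25 and 2.42 TPM in RUNX1 mutant and 35.7 and 22.1 TPM in double mutant HSPC. Pdcd1, the receptor PD-1, lay at 0.0932 and 0.0834 TPM and 8.75 and 4.38 TPM (log2 fold change 2.74 ± 0.30 SE, adjusted p = 0.0137), and Zbtb16, the factor PLZF of innate-like lymphocytes, at 0.866 and 0.728 TPM and 4.12 and 3.47 TPM (log2 fold change 1.41 ± 0.17 SE, adjusted p = 0.0174).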
